A study of Rattus norvegicus with 34 samples.

Results

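The genes described here are named as subunits of voltage-gated sodium, calcium and potassium channels and of the pacemaker (HCN) channels. With them come the inward rectifier, background, and calcium- and sodium-activated potassium channels that share the Kcn symbol. All were chosen by symbol alone, as genes that begin with Scn and a digit, Kcn, Hcn and a digit, Cacna1, Cacna2d, Cacnb or Cacng. Whether each Cacng gene serves a calcium channel was not examined. In all, 121 genes were found on 124 of the 29214 transcript clusters of the array. Each such cluster groups the probes of 1 transcript unit. Kcnip1, Kcnip2 and Scn3a had several clusters each, of which the brightest was used.

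Male Wistar rats, not altered genetically, had the proximal left coronary artery tied or underwent a sham operation, and tissue was taken 2 months later. Left ventricle (LV) came from 6 sham-operated rats and from rats with small (S-MI, 6), moderate (M-MI, 6) or large (L-MI, 5) infarcts, and peripheral blood mononuclear cells (PBMCs) from 6 sham-operated and 5 L-MI rats, with 1 array each. The whole left ventricle was used in sham-operated rats and the part outside the visible scar in infarcted rats, so the infarct and the part sampled cannot be told apart. The deposited description of L-MI replicate 1 speaks of compensated injury in both tissues, against its title and infarct size, and it was kept as L-MI. The median signal of an array ranged from 6.52 to 6.61 in LV and from 6.97 to 7.01 in PBMCs, and levels were therefore not compared across tissues. On the first principal component of all transcript clusters 5 LV arrays stood apart, replicates 4 and 6 of sham and 4 and 5 of S-MI at one end (112 to 138) and L-MI replicate 4, the farthest, at the other (-165).

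A heart beat is a sequence of such currents. Sodium channels open first and carry the fast upstroke, L-type calcium channels admit the calcium that triggers contraction, and several potassium currents bring the membrane back to rest, the transient outward current being prominent in rodents. T-type calcium channels and HCN channels open near the resting potential and are known for their part in the pacemaker cells of the sinoatrial node. Both are more abundant in the fetal than in the adult ventricle. Each pore is accompanied by auxiliary subunits that set its gating and its number at the membrane.

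The labelled tissues matched their defining markers. All 10 cardiomyocyte markers were above the median signal in LV and none in PBMCs, and all 8 T cell markers were above it in PBMCs. So were all 4 red cell and all 3 platelet markers in PBMCs. The mean signal of the red cell list per PBMC array ran from 7.89 to 10.6 in sham and from 7.99 to 11.6 in L-MI. In LV of L-MI, 7 of 8 macrophage markers and 5 of 8 fibroblast markers rose, and 0 of 10 cardiomyocyte and 0 of 7 endothelial markers passed the limma test used below (3 and 2 had an unadjusted p under 0.05). Of the remaining lists, 2 of 8 smooth muscle markers and 1 of 8 T cell markers (Cd28) rose, 1 of 7 NK cell markers (Klrb1a) and 1 of 4 red cell markers (Slc4a1) fell, and none of 4 B cell, 3 platelet and 6 adipocyte markers passed (0, 0 and 2 with an unadjusted p under 0.05). The summed log2 signal of the macrophage list was between 62.4 and 64.1 on the sham arrays and between 66.6 and 70.8 on the L-MI arrays. For the fibroblast list it was between 70.5 and 72.4 (sham) and between 75.7 and 81.1 (L-MI). For the cardiomyocyte list it was between 132.3 and 132.7 (sham) and between 131.5 and 132.4 (L-MI). In whole tissue, fewer cells of a type and less RNA per cell cannot be told apart, and the part of these markers in the results below was not tested.

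In LV of rats with L-MI, 8 channel genes rose and 4 fell relative to sham-operated rats. The rises were those of the T-type calcium channel pores Cacna1g and Cacna1h, the pacemaker channel Hcn4, the sodium channel subunits Scn3b and Scn1a, the calcium channel subunit Cacna2d2 and the potassium channel genes Kcnt2 and Kcne4. The falls were those of the sodium channel subunit Scn4b, the potassium channels Kcnk2 and Kcnj3 and the calcium channel subunit Cacng6. A call required a change of 1.3-fold or more together with an adjusted p (Benjamini-Hochberg, over all 29214 transcript clusters) of 0.05 or less, from a linear model over the 23 LV arrays fitted with limma. These 12 calls are 9.92% of the 121 genes, and 3.22% of all transcript clusters were called (2.08% higher and 1.14% lower). An unadjusted p under 0.05 was reached by 30 of the 121 genes, against 21.5% of all transcript clusters. The median change of the 121 genes was 0.02 on the log2 scale and that of all transcript clusters -0.01.

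**Figure D1:**
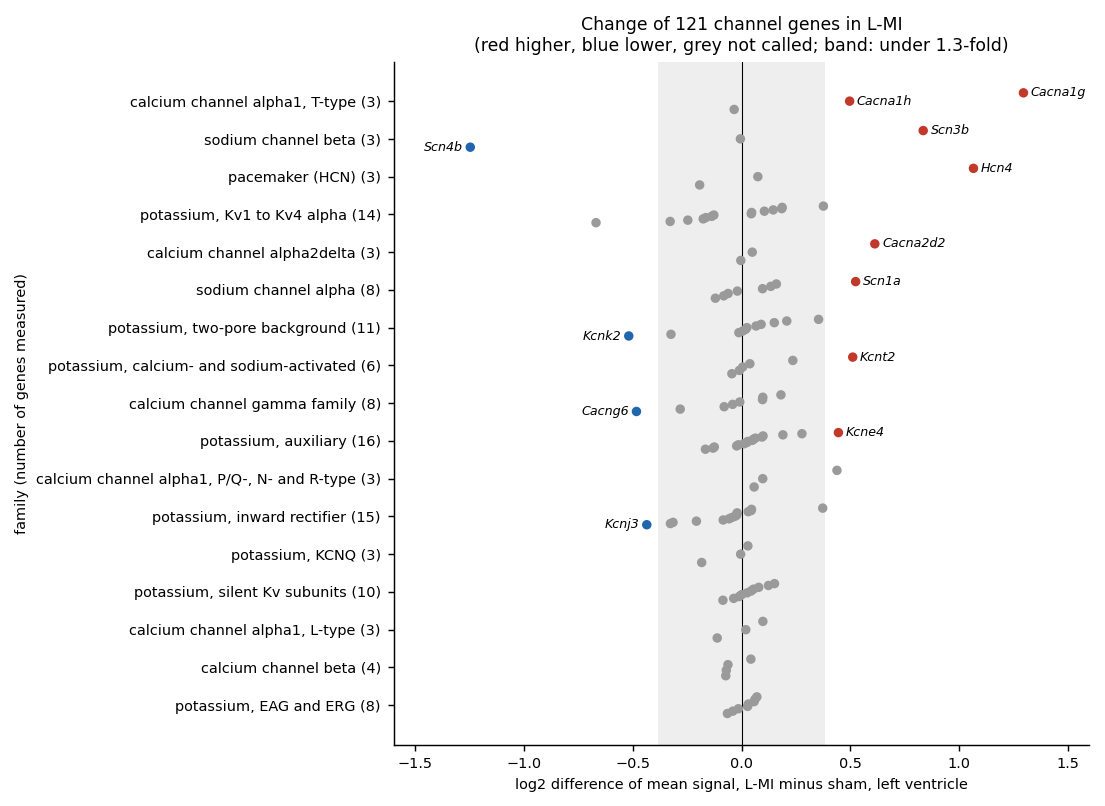
Each point is 1 of the 121 channel genes, placed by the log2 difference of its mean LV signal between L-MI (5 arrays) and sham (6 arrays) and grouped by family. The 8 genes that rose (red) run from 0.45 for Kcne4 to 1.297 for Cacna1g, the 4 that fell (blue) from -0.44 for Kcnj3 to -1.25 for Scn4b, and most others lie within the grey band of less than 1.3-fold.

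The plot of changes by family shows that the calls lay in 10 of the 17 families. The T-type pores were called in 2 of 3 cases, and the sodium channel beta family in 2 of 3 cases, 1 up and 1 down. None of the 14 voltage-gated potassium pores of the Kcna to Kcnd families, the 8 EAG and ERG channels, the 10 silent Kv subunits, the 3 L-type pores or the 4 calcium channel beta subunits passed. Kcnd2 at -0.67 and Cacna1a at 0.44 moved past the fold and missed the adjusted p (0.0677 and 0.0724). The adjusted p alone was met by 20 genes, against 9.48% of all transcript clusters, and 8 of them missed the fold, of which Kcnd1 at 0.38 (SE 0.10) and Kcnj14 at 0.37 (SE 0.10) lay nearest to it. Of the 12 called genes, 9 had a mean signal above the median of all transcript clusters (6.56), and Scn3b, Kcnt2 and Kcne4 were below it.

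Upstream sequence was at hand for 84 of the 121 genes, and for 6 of the 12 that were called. The 250 bases before the RefSeq start of transcription (GRCr8) are given for the 5 of these with a single listed start, as the regions from which the changed transcripts begin. Capitals mark the GC box (GGGCGG, on either strand), a motif bound by SP1. Cacna2d2 (chr8:116950856-116951105, plus strand), Kcnt2 (chr13:54215057-54215306, plus strand) and Kcne4 (chr9:87695798-87696047, plus strand) rose. Scn4b (chr8:54343623-54343872, plus strand) and Cacng6 (chr1:74662754-74663003, minus strand) fell. All are written 5′ to 3′ on the strand of the gene.
Cacna2d2: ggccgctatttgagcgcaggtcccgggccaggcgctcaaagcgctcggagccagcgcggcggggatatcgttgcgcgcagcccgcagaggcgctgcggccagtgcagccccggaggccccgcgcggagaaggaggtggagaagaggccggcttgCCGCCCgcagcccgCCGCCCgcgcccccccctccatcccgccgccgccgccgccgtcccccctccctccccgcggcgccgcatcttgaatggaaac
Kcnt2: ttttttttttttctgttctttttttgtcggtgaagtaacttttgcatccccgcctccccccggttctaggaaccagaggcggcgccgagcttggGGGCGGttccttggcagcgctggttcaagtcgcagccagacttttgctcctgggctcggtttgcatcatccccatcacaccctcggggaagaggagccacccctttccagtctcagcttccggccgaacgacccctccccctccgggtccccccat
Kcne4: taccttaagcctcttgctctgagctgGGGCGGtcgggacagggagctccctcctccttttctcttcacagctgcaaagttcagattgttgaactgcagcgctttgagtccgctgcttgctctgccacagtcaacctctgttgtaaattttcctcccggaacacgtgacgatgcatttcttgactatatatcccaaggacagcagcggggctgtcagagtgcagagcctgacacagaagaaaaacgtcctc
Scn4b: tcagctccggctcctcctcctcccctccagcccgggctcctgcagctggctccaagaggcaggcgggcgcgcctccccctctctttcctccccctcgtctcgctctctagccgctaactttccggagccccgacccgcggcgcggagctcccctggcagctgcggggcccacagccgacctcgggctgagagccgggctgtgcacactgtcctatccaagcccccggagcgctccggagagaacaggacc
Cacng6: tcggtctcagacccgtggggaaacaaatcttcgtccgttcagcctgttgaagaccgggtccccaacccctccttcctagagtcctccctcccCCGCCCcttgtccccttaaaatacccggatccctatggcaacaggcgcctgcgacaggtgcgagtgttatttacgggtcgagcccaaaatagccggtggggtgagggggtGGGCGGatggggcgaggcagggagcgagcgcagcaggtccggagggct

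The GC box stood in this window in 4 of the 6 called genes with a sequence (Cacna2d2, Kcnt2, Kcne4 and Cacng6), in 43 of the 84 channel genes (51.2%) and in 33.5% of all 27457 genes of the table. The TATA box (TATAAA) was found in 3 of the 84 channel genes (3.57%) and in 14.1% of all genes. The median share of G and C bases was 61.2% in the channel gene windows and 51.2% in all windows. The part of base composition in these motif shares was not tested. Both strands were searched for 6 further motifs, which may overlap each other. Their shares are given for the 84 channel genes and then for all genes. The GATA site (AGATAA) stood in 10.7% and 10.9%, and the NKX2-5 site (TNAAGTG) in 4.76% and 10.7%. The MEF2 site (CTA and TAG with 4 bases between them) stood in 1.19% and 3.7%. The cyclic AMP response element (TGACGTCA) stood in 0% and 1.78%, and the T-box site (AGGTGTGA) in 1.19% and 1.06%. The first part of the REST element (TTCAGCACC) stood in 2.38% (2 genes) and 0.346%. None of these 6 motifs nor the TATA box was found in the windows of the 6 called genes. With 6 windows and such low shares, this absence says little.

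The voltage-gated sodium channels were represented by 8 pores and 3 beta subunits. Scn4b (transcript cluster 10909621) and Scn3b (10909328) encode beta subunits, single-span proteins that bind the pore, shift its gating and act as adhesion molecules. The log2 signals of Scn4b in L-MI replicates 1 to 5 were 9.20, 8.97, 8.32, 7.89 and 8.74, and those in sham had a lowest value of 9.60, a median of 9.86 and a highest value of 10.09. All L-MI arrays lay below all sham arrays, with replicate 1 nearest and replicate 4 farthest. Scn4b fell by 1.25 (SE 0.17, adjusted p = 4.92e-05), a signal 57.9% lower. Scn3b was at 6.92, 6.51, 6.93, 7.27 and 7.08 in L-MI and had a lowest value of 5.82, a median of 6.16 and a highest value of 6.23 in sham. Here no L-MI array came down to the sham range, and Scn3b rose by 0.84 (SE 0.13, adjusted p = 1.63e-04). Scn2b, the other beta subunit described here, was at -0.005 (SE 0.08, 95% interval from -0.18 to 0.17).

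Among the pores, Scn1a (10845859), a channel best known from neurons, was at 7.41, 7.81, 7.71, 7.97 and 7.49 in L-MI, and sham had a lowest value of 6.89, a median of 7.12 and a highest value of 7.38. The groups did not overlap, though the lowest L-MI array was only just above the highest sham array. Scn1a rose by 0.52 (SE 0.15, adjusted p = 0.0222), and it no longer passed without sham replicate 2 (0.47, adjusted p = 0.0549) or without L-MI replicate 4 (0.45, adjusted p = 0.0783). The other 7 pores changed by between -0.12 (Scn3a) and 0.16 (Scn2a) and did not pass. Of 8 markers of Schwann cells and neurons 1 rose (Uchl1, by 0.86). The summed log2 signal of that list was between 49.6 and 50.6 in sham and between 50.7 and 51.7 in L-MI, and its part in the rise of Scn1a was not tested.

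The T-type calcium channel pore Cacna1g (10746327) had the largest rise among the 121 genes. Its log2 signals in L-MI were 8.68, 7.75, 8.37, 8.40 and 8.41, and sham had a lowest value of 6.90, a median of 6.96 and a highest value of 7.32. Every L-MI array lay above every sham array, and L-MI replicate 2 stood below the other 4. Cacna1g rose by 1.297 (SE 0.13, adjusted p = 1.23e-06), which is 2.46-fold. Cacna1h (10741422), the related T-type pore, was at 8.26, 7.90, 8.17, 7.84 and 7.88 in L-MI, and sham had a lowest value of 7.16, a median of 7.50 and a highest value of 7.85. The groups overlapped by 1 array of each, since L-MI replicate 4 lay below sham replicate 4. Cacna1h rose by 0.50 (SE 0.15, adjusted p = 0.0431), the weakest of the 12 calls, and lost it in 12 of the alternative analyses, for example without L-MI replicate 1 (0.43, adjusted p = 0.125). Cacna1i, the pore that completes the T-type family, was at -0.03.

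The L-type channel gave other values. Cacna1c, the pore through which the ventricular myocyte takes up the calcium that starts contraction, was at 9.59 ± 0.09 (SD, n = 5) in L-MI and 9.70 ± 0.05 (SD, n = 6) in sham. Its difference of -0.11 (SE 0.06, adjusted p = 0.267) has a 95% interval from -0.23 to 0.01. The subunits that accompany this pore in the ventricle, Cacna2d1 and Cacnb2, differed by -0.0032 (SE 0.06) and -0.07 (SE 0.08). None of these 3 genes passed the test.

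The auxiliary subunits of calcium channels held 1 rise and 1 fall. Cacna2d2 encodes an alpha2delta subunit, an extracellular protein that raises the number of channels at the membrane. It was at 8.82, 8.57, 8.96, 8.57 and 8.85 in L-MI, and sham had a lowest value of 7.91, a median of 8.11 and a highest value of 8.35. The groups did not overlap, and Cacna2d2 rose by 0.61 (SE 0.14, adjusted p = 0.0053). Cacng6, a gamma subunit of the muscle channel, was at 7.30, 7.25, 7.43, 7.18 and 6.95 in L-MI, and sham had a lowest value of 7.47, a median of 7.71 and a highest value of 8.07. All L-MI arrays lay below the sham arrays, and Cacng6 fell by 0.48 (SE 0.12, adjusted p = 0.0103). Without the 4 sham and S-MI arrays that stood apart on the first principal component it was at -0.39 (adjusted p = 0.0758). Its relative Cacng7 met the adjusted p but not the fold, at -0.28 (SE 0.07, adjusted p = 0.0169).

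Hcn4 (10910473), the main pacemaker channel of the sinoatrial node, was at 9.89, 9.77, 9.93, 10.60 and 9.52 in L-MI, and sham had a lowest value of 8.17, a median of 8.83 and a highest value of 9.51. The sham arrays were spread over more than 1 log2 unit, and the lowest L-MI array lay just above the highest of them. Hcn4 rose by 1.07 (SE 0.30, adjusted p = 0.0223), with a 95% interval from 0.45 to 1.68. It no longer passed without sham replicate 1 (0.92, adjusted p = 0.0583) or without L-MI replicate 4 (0.90, adjusted p = 0.0819). Hcn2, the pacemaker channel known from the ventricle, was at -0.19 (SE 0.10, adjusted p = 0.292), and Hcn3 at 0.08 (SE 0.08). Of 9 markers of atrial and nodal myocytes, Nppa rose by 1.89 (SE 0.29) and Tbx3, a repressor that marks the conduction system, fell by 0.38 (SE 0.10). The summed log2 signal of that list was between 58.2 and 62.3 in sham and between 60.2 and 68.8 in L-MI. Its mean signal per array had a median of 6.64 in sham and 6.71 in L-MI (highest 7.64), and the median change of its genes was 0.02. The part of this list in the rises of Hcn4 and Cacna1g was not tested.

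**Figure D2:**
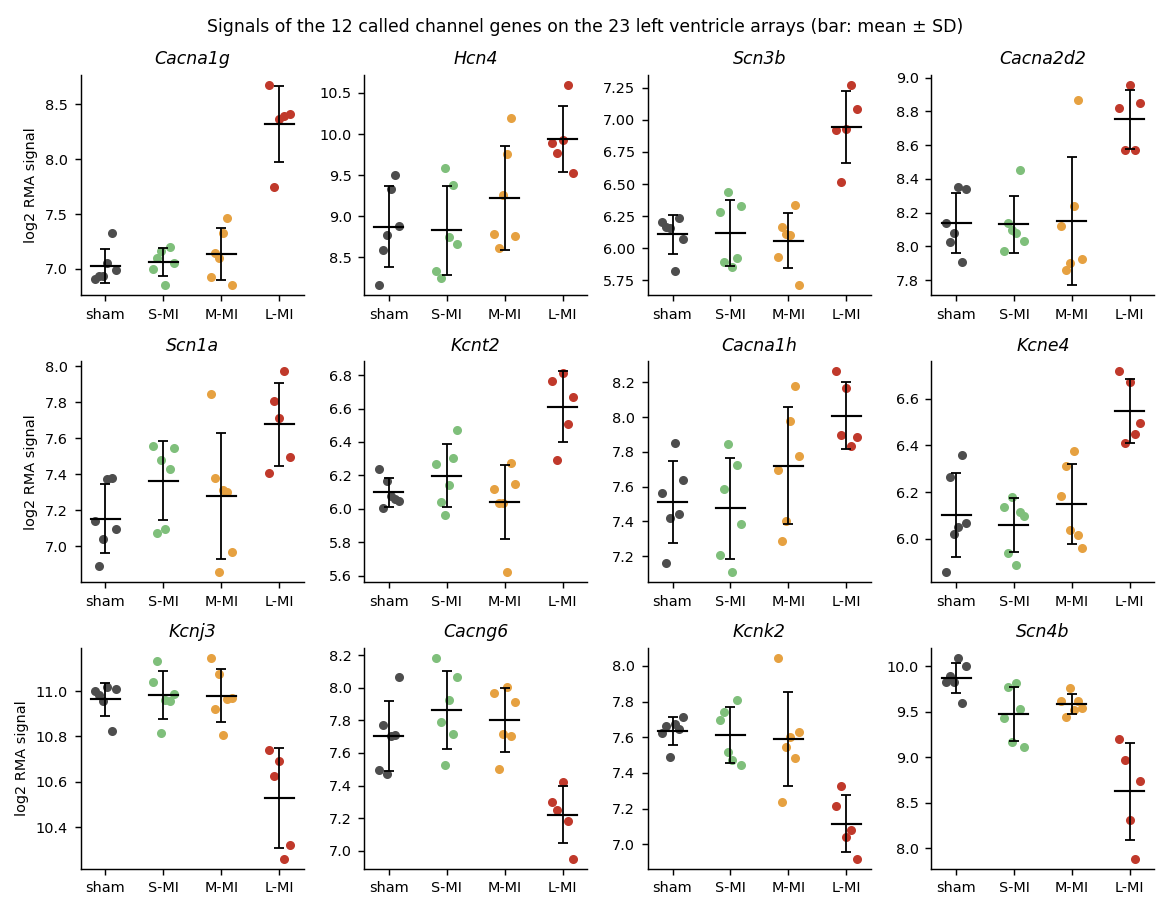
Log2 RMA signals (y axis) of the 12 called channel genes on each of the 23 LV arrays by group (x axis), with the mean and SD of each group. For 11 of the 12 genes all 5 L-MI points lie beyond all 6 sham points, Cacna1h being the exception. Some S-MI and M-MI points also lie past all sham points in the direction of L-MI. M-MI replicate 5 does so for 7 genes, S-MI replicates 3 and 6 for 5 each, and M-MI replicate 3 for 0.

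The plot of signals by group shows that the arrays of L-MI and sham did not overlap for 11 of the called genes, nor for Kcnj8, Kcnj11 and Kcnj14, which were not called for want of fold. These 14 genes are 11.6% of the channel genes, and 6.97% of all transcript clusters did not overlap.

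The potassium channels are the most numerous group, and their calls fell on the inward rectifier, tandem-pore, sodium-activated and auxiliary families. Kcnj3 (10836271) encodes a pore of the acetylcholine-activated potassium channel, through which the vagus nerve slows the heart. It was at 10.74, 10.63, 10.69, 10.26 and 10.32 in L-MI, and sham had a lowest value of 10.82, a median of 10.99 and a highest value of 11.02. No array of L-MI reached the sham range, and Kcnj3 fell by 0.44 (SE 0.08, adjusted p = 8.78e-04). Without L-MI replicate 4 it was at -0.37, under the fold. Kcnj5, its partner in that channel, was at -0.08 (SE 0.14, 95% interval from -0.365 to 0.20).

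None of the other 14 inward rectifiers was called. Kcnj2 and Kcnj12, pores of the current that holds the resting potential, were at -0.02 (SE 0.07) and -0.05 (SE 0.06). Kcnj8 and Kcnj11, pores of the ATP-sensitive channels that open when energy is short, met the adjusted p at -0.31 (SE 0.07, adjusted p = 0.00271) and -0.21 (SE 0.05, adjusted p = 0.0112). Both changes were smaller than 1.3-fold, though all L-MI arrays lay below all sham arrays. Kcnj14 was at 0.37 (SE 0.10, adjusted p = 0.0171), just under the fold.

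Tandem-pore channels carry background potassium current. Kcnk2 (TREK-1), which opens on stretch of the membrane, was at 7.21, 7.33, 7.04, 7.08 and 6.92 in L-MI, and sham had a lowest value of 7.49, a median of 7.65 and a highest value of 7.71. All L-MI arrays were below sham, and Kcnk2 fell by 0.52 (SE 0.10, adjusted p = 0.00158). Kcnk3 (TASK-1), which closes on acidification, met the adjusted p at -0.32 (SE 0.09, adjusted p = 0.0266) and not the fold. Without L-MI replicate 4, whose value of 9.58 lay within the sham range, it was at -0.41 and met both. Kcnk1 and Kcnk6 were at 0.35 (SE 0.12) and 0.21 (SE 0.07) and did not pass (adjusted p = 0.0625 and 0.0711). The remaining 7 of the 11 tandem-pore genes did not pass either.

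Kcnt2 (Slick) is opened by intracellular sodium and chloride. It was at 6.77, 6.29, 6.81, 6.51 and 6.67 in L-MI, and sham had a lowest value of 6.00, a median of 6.07 and a highest value of 6.24. The groups did not overlap, with L-MI replicate 2 close to the sham range, and Kcnt2 rose by 0.51 (SE 0.11, adjusted p = 0.00236). Kcnt1, its closest relative, was at 0.04 (SE 0.10), and Kcnma1, the calcium-activated channel of large conductance, met the adjusted p at 0.24 (SE 0.07, adjusted p = 0.0297). Kcne4 encodes a single-span subunit that inhibits the slow delayed rectifier and other voltage-gated channels. It was at 6.72, 6.41, 6.67, 6.45 and 6.5 in L-MI, and sham had a lowest value of 5.86, a median of 6.06 and a highest value of 6.36. The lowest L-MI array lay just above the highest sham array, and Kcne4 rose by 0.45 (SE 0.09, adjusted p = 0.00193). The other measured Kcne genes were at 0.28 (Kcne1, SE 0.22), 0.06 (Kcne2), 0.05 (Kcne3) and 0.01 (Kcne5).

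Pores of the repolarizing currents did not pass. Kcnd2, the main pore of the fast transient outward current in the rat ventricle, was at 8.13, 7.79, 7.64, 7.43 and 8.62 in L-MI, and sham had a lowest value of 7.94, a median of 8.65 and a highest value of 9.05. Of the L-MI arrays 3 lay below sham and replicate 5 lay close to the sham median. Its difference of -0.67 (SE 0.23) has a 95% interval from -1.14 to -0.20 and an adjusted p of 0.0677. It passed without L-MI replicate 5 (-0.84, adjusted p = 0.0202), without sham replicate 5 (-0.80, adjusted p = 0.0255) and with the 30% dimmest transcript clusters left out (adjusted p = 0.0469). Kcnip2, the subunit that brings this pore to the membrane, was at -0.13 (SE 0.08), and Kcnd3 and Kcna4, the other transient outward pores, were at -0.18 (SE 0.08) and 0.15 (SE 0.10). Among the delayed rectifiers Kcna5 was at -0.25 (SE 0.22), Kcna2 at -0.33 (SE 0.13, adjusted p = 0.128) and Kcnh2 at 0.06 (SE 0.07). Kcnq1, the pore of the slow delayed rectifier, met the adjusted p at a small difference of -0.18 (SE 0.06, adjusted p = 0.0396).

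**Figure D3:**
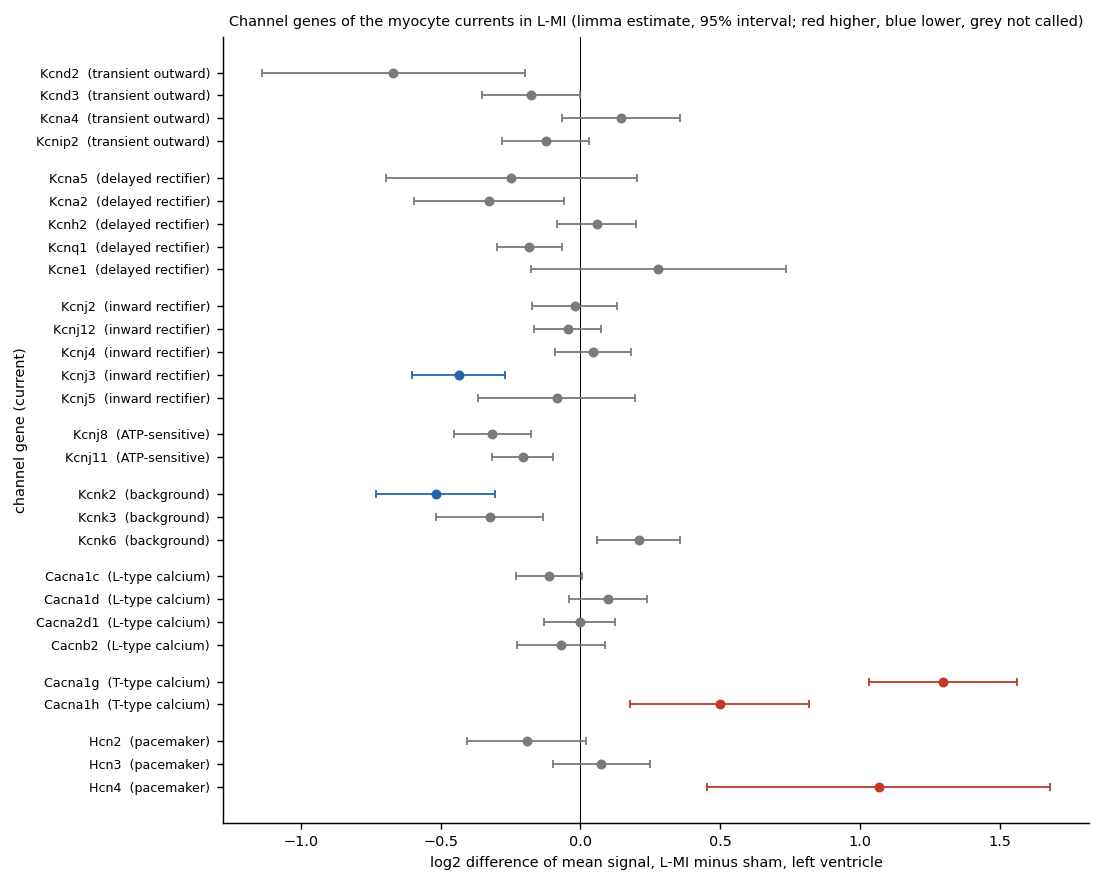
Log2 difference of mean LV signal between L-MI and sham (x axis) with its 95% interval from limma for genes of the main myocyte currents (y axis). Cacna1g, Cacna1h and Hcn4 (red) lie to the right of 0 and Kcnj3 and Kcnk2 (blue) to the left, while the intervals of Cacna1c, Kcnj2 and Kcnh2 include 0.

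The plot of the current genes sets these values side by side. Its widest intervals belong to Hcn4, Kcnd2, Kcne1 and Kcna5.

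In smaller infarcts no channel gene passed. In M-MI against sham 0 of the 121 genes were called with limma, as were 0 of all transcript clusters (0%), and the analysis of variance without moderation called 0 as well. An unadjusted p under 0.05 was reached by 4 channel genes, against 7.03% of all transcript clusters. The smallest p values were those of Kcnb2 (0.17, SE 0.06), Scn7a, a sodium-sensing relative of the sodium channels (-0.29, SE 0.13), and Kcnq3 (0.14, SE 0.06), with adjusted p values of 0.689, 0.704 and 0.704. In S-MI against sham 0 were called by both methods (0% of all transcript clusters), and 9 channel genes had an unadjusted p under 0.05, against 6.33% of all. Kcnk9 (0.27, SE 0.09), Hcn2 (-0.30, SE 0.10) and Kcna10 (0.22, SE 0.09) led, with adjusted p values of 0.599, 0.615 and 0.702. Between M-MI and S-MI none of the 121 genes passed with either method (0% of all). An unadjusted p under 0.05 was met by 13, against 12.5% of all, led by Kcnn4 (0.22), Kcns1 (0.22) and Kcnk18 (0.24). Of these 13 genes 12 were higher in M-MI (9.92% of the channel genes, against 5.94% of all) and 1 was lower (0.826% against 6.54%). On the first principal component the M-MI arrays lay between -51.4 and -16.9. There S-MI replicates 1, 4, 5 and 6 lay between 46.7 and 138, and replicates 2 and 3 at 6.69 and -64.8. The part of this component in the counts by direction was not tested.

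**Figure D4:**
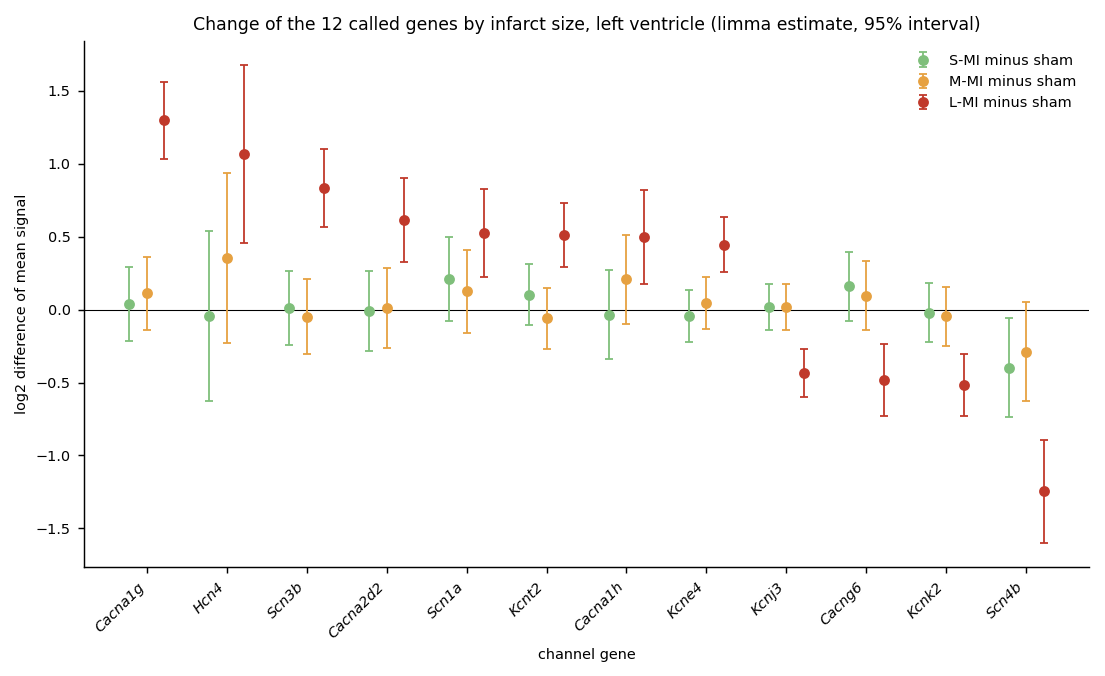
Log2 difference of mean LV signal from sham (y axis) in S-MI, M-MI and L-MI, with 95% intervals from limma, for the 12 genes called in L-MI (x axis). The estimates of S-MI and M-MI run from -0.40 to 0.35, and the intervals of S-MI and M-MI include 0 for all 12 genes but Scn4b in S-MI.

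The 12 genes called in L-MI differed from sham by between -0.29 and 0.35 in M-MI and between -0.40 and 0.21 in S-MI, as the plot by infarct size shows. All these comparisons use the same sham arrays. The values of Scn4b were -0.29 (SE 0.16, adjusted p = 0.725) for M-MI and -0.40 (SE 0.16, adjusted p = 0.72) for S-MI. In M-MI Hcn4 was at 0.35 (SE 0.28), and its S-MI value was -0.05 (SE 0.28). Cacna1g was at 0.11 (SE 0.12) and 0.04 (SE 0.12), with upper limits of the 95% interval at 0.36 and 0.29, both under its rise in L-MI. The corresponding values of Scn3b were -0.05 (SE 0.12) and 0.01 (SE 0.12), with upper limits at 0.21 and 0.27.

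Compared with the other infarct groups, L-MI differed in 10 channel genes from M-MI (5 higher and 5 lower) and in 14 from S-MI (8 higher and 6 lower). Against M-MI 2.68% of all transcript clusters were called (1.99% higher and 0.695% lower), and against S-MI 2.48% (1.57% higher and 0.911% lower). In both comparisons Cacna1g, Scn3b, Kcnt2, Kcne4 and Cacna2d2 were higher in L-MI, and Kcnj3, Scn4b, Kcnk3, Cacng6 and Kcnk2 were lower. Cacna1g was 1.18 (SE 0.13) above M-MI and 1.26 (SE 0.13) above S-MI. Scn4b was at -0.96 (SE 0.17) against M-MI and -0.85 (SE 0.17) against S-MI. Hcn4 was called against S-MI (1.11, SE 0.30, adjusted p = 0.0211) together with Kcnj14, Cacna1h and Kcnd2, the last at -0.88 (SE 0.23, adjusted p = 0.018). Without the 4 sham and S-MI arrays apart on the first component 9 genes were called against S-MI, and Kcnk3, Kcnj14, Kcnt2, Kcnd2 and Cacna1h were no longer among them. Without L-MI replicate 4 as well 7 were called, and Scn4b (adjusted p = 0.0618), Kcnk2 (0.0519) and Hcn4 (0.117) were among those lost. Hcn4 also lost the call against S-MI without S-MI replicate 1 (0.0509), S-MI replicate 2 (0.0527) or L-MI replicate 4 (0.0788). Kcnd2 lost it without L-MI replicate 3 (0.0538) or 4 (0.0676), and Cacna1h for example without L-MI replicate 1 (0.102). Leaving out 1 array ended the call of Kcnk3 against S-MI in 6 of 11 refits, that of Kcnt2 against S-MI in 3 and that of Kcne4 against M-MI in 5. With only the arrays of L-MI and M-MI in the model Cacna2d2 missed the threshold (adjusted p = 0.0505).

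Within groups the arrays were not alike. L-MI replicates 1, 2, 3 and 5 lay past all sham arrays for 12 of the 12 called genes and replicate 4 for 11. Replicate 2 was the nearest of the L-MI arrays to sham for 5 genes and replicate 4 the farthest for 5. Among M-MI, replicate 5 lay past all sham arrays, in the direction of L-MI, for 7 of the 12 genes and replicate 4 for 6, whereas replicate 3 did so for 0. Of S-MI, replicates 3 and 6 did so for 5 each. The 12 genes and their directions were chosen by the L-MI change from these same sham arrays. The counts of L-MI, M-MI and S-MI are therefore a description, without a share over all transcript clusters beside them. Without L-MI replicate 1, whose description differs from its title, 12 channel genes were called, and without replicate 2 the number was 15.

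In PBMCs 1 channel gene, Cacnb4, met the looser criteria used there (a change of 1.2-fold or more with an unadjusted p of 0.05 or less), which 0.924% of all transcript clusters met. Cacnb4 encodes a calcium channel beta subunit, a cytoplasmic protein that carries the pore to the membrane. It was at 7.20, 6.30, 6.82, 7.13 and 7.05 in L-MI, and sham had a lowest value of 5.70, a median of 6.42 and a highest value of 7.12. The groups overlapped, and the difference was 0.53 (SE 0.23, unadjusted p = 0.039, adjusted p = 0.9997 from limma). An exact permutation test over the 462 splits of 5 and 6 arrays gave a two-sided p of 0.0758, and leaving out 1 array ended the call in 7 of 11 cases. An unadjusted p under 0.05 was reached by 5 channel genes, against 3.77% of all transcript clusters. Kcna3, the voltage-gated potassium channel of T cells, was at 11.39 ± 0.40 (SD, n = 5) in L-MI and 11.11 ± 0.24 (SD, n = 6) in sham PBMCs, a difference of 0.29 with an adjusted p of 0.9997. Kcnn4, the calcium-activated channel of lymphocytes, was at 10.99 ± 0.15 (SD, n = 5) and 11.02 ± 0.07 (SD, n = 6).

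**Figure D5:**
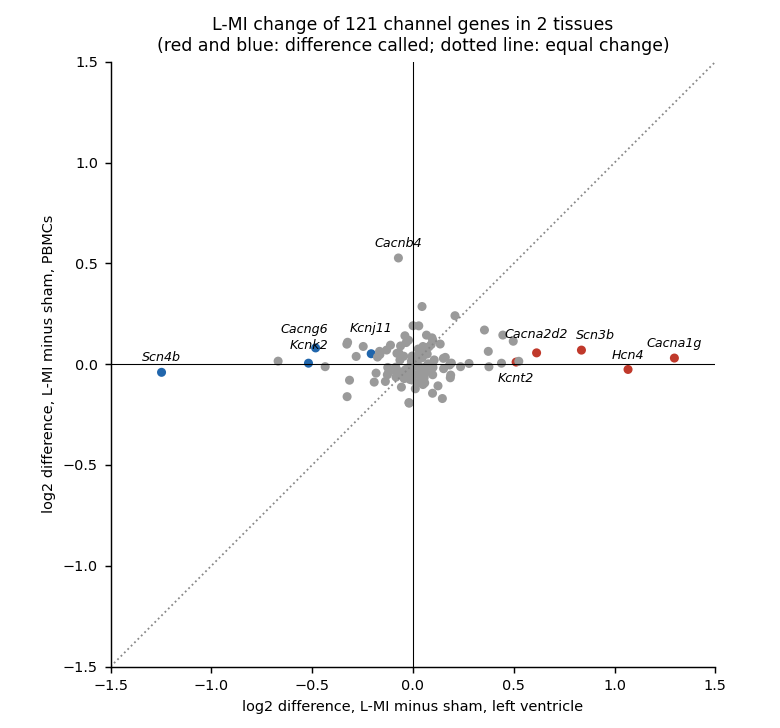
Log2 difference between L-MI and sham in LV (x axis) and in PBMCs (y axis) for the 121 channel genes, on the transcript cluster used for LV. The 9 genes whose changes differed between tissues (red and blue) lie along the horizontal line, with PBMC changes between -0.04 and 0.08.

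The change in L-MI differed between LV and PBMCs for 9 channel genes, by the interaction of tissue and infarct in a limma model of 22 arrays (adjusted p of 0.05 or less), where 2.55% of all transcript clusters passed (1.39% with a higher and 1.16% with a lower value in LV). The difference, LV change minus PBMC change, was 1.27 (SE 0.15) for Cacna1g, 1.09 (SE 0.26) for Hcn4, 0.77 (SE 0.14) for Scn3b, 0.56 (SE 0.12) for Cacna2d2 and 0.50 (SE 0.12) for Kcnt2. It was -1.21 (SE 0.23) for Scn4b, -0.56 (SE 0.13) for Cacng6, -0.52 (SE 0.09) for Kcnk2 and -0.26 (SE 0.07) for Kcnj11. The call of Kcnj11 was lost in 17 of 22 refits without 1 array (adjusted p up to 0.0971), and that of Cacng6 with array weights (adjusted p = 0.0672). Without the sham arrays apart on the first component the calls of Kcnt2 (adjusted p = 0.0587), Cacng6 (0.0543) and Kcnj11 (0.128) were lost. As the plot of both tissues shows, the PBMC values of these genes lay near 0. In PBMCs 92 of the 121 channel genes were below the median signal (6.99), and the part of low signal in these values was not tested. For the 12 genes called in LV the PBMC differences were between -0.04 and 0.14. Which arrays came from the same rat is not stated, so the model took all arrays as independent.

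Of 70 measured genes that act with these channels, 7 (10%) were called in L-MI against sham, where 3.22% of all transcript clusters were called, and they lay in the last 2 of 5 lists. Of the partners, 0 of 11 of sodium channels, 0 of 14 of potassium channels and 0 of 9 of calcium channels were called in L-MI against sham with limma, while 3, 3 and 2 of them had an unadjusted p under 0.05. Rangrf, a sodium channel partner, met the adjusted p at -0.37 (SE 0.07, adjusted p = 9.12e-04) and lay just under the fold. Jph2, which holds L-type channels next to the calcium store, was at -0.24 (SE 0.06, adjusted p = 0.00586), Gem, a small GTPase that represses calcium channels, at 0.27 (SE 0.07, adjusted p = 0.0212), and Akap9, an anchor of the slow delayed rectifier, at -0.22 (SE 0.06, adjusted p = 0.0304). Among 16 other ion transporters 3 rose and 1 fell: Fxyd5 rose by 0.74 (SE 0.09), Trpc6 by 0.52 (SE 0.10) and Fxyd6 by 0.41 (SE 0.10), and Fxyd3 fell by 0.63 (SE 0.12). The Fxyd genes encode small regulators of the sodium pump, and Trpc6 a cation channel opened by diacylglycerol. Among 20 transcription factors of the conduction system and of channel genes, Irx4, which marks ventricular myocytes, rose by 0.63 (SE 0.07, adjusted p = 6.56e-06), Etv1 rose by 0.44 (SE 0.07) and Tbx3 fell.

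The 121 genes held 15 pairs of direct neighbours among protein-coding genes of GRCr8, and in none of the 15 pairs were both genes called. Since only 2 of these pairs held 1 called gene, this count says little about neighbours. Scn4b, at -1.25 (SE 0.17), lies next to Scn2b, at -0.005 (SE 0.08). Cacng6, at -0.48 (SE 0.12), lies next to Cacng8, at 0.10 (SE 0.09), which is followed by Cacng7, at -0.28 (SE 0.07). Kcnj2 and Kcnj16, at -0.02 (SE 0.07) and -0.02 (SE 0.17), are also neighbours. The differences between neighbours were not tested.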

How the data were processed

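RNA of LV and PBMCs was hybridized to Affymetrix Rat Gene 1.0 ST arrays. The deposited signals were summarized by the authors with RMA (robust multiarray average) in Partek software, and they were read here as log2, the scale of RMA output, although no log base is given. Software versions are not given in the sources used here. Symbols are those of the platform annotation, for clusters with 1 symbol. Linear models with a mean per group were fitted over 23 LV and 11 PBMC arrays, and over 22 for the tissue difference, with limma 3.58.1 in R 4.3.3, without a filter. Nothing states which arrays come from 1 rat. Sequences were read with Python 3.11.15 and pandas 2.3.3, and figures drawn with matplotlib 3.10.9. The fits were tested on simulated data with independent noise for each cluster. Those data lack the array differences seen on the first component, so their effect was not measured there. The number of arrays limits the precision.

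Genes named are those called in L-MI or between tissues, a list of 63 subunits known from heart and blood cells (56 measured), the 3 with the smallest p in the other LV comparisons, called genes in PBMCs, and the 4 partners per list with the smallest p. Other relatives, and genes named as just outside a threshold or as neighbours, were chosen after their values were seen. Some genes are not reported here. The members and lists were chosen with earlier results of these data known. The results were recomputed with an unmoderated analysis of variance, with the compared groups alone, with limma-trend and with array weights. Other refits left out the 30% dimmest clusters, used median centring or another quantile normalization, or took the mean of all clusters of a symbol. Further refits used other thresholds, took the replicate number within a tissue as a block, or left out each array in turn. After the data had been seen, the 4 sham and S-MI arrays apart on the first component, these with L-MI replicate 4, and (as a count only) channel genes below the median signal were also left out.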

Additional observations from a re-analysis of the deposited data

Results flagged for a closer look

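In 6 of the 62 groups examined (9.68%), 1 array lay far from the others by Dixon's criterion, which chance meets in about 1 group in 20 (gap over range above the 95% critical value). Sham replicate 5 was high for Cacna1g (7.32, the others between 6.90 and 7.05) and low for Kcnj3 (10.8, the others between 10.96 and 11.02). M-MI replicate 5 was high for Cacna2d2 (8.87) and for Kcnj14 (7.26), S-MI replicate 5 was high for Cacna2d2 (8.45), and M-MI replicate 4 was low for Kcnt2 (5.62).

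The L-MI change differed between LV and PBMCs, by the interaction term, for Cacna1g (1.27), Kcnk2 (-0.52), Scn3b (0.77), Scn4b (-1.21), Cacna2d2 (0.56), Hcn4 (1.09), Kcnt2 (0.50), Cacng6 (-0.56) and Kcnj11 (-0.26). No cause was tested.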

How the results depend on the processing

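Of the 12 genes called in L-MI against sham, 7 kept the call in every refit (Cacna1g, Scn4b, Scn3b, Kcnk2, Kcne4, Kcnt2 and Cacna2d2), and Cacna1h, Cacng6, Hcn4, Kcnj3 and Scn1a lost it in at least 1. Leaving out 1 array gave 10 (without L-MI replicate 4) to 15 (without L-MI replicate 2) called genes, and the adjusted p without a fold gave 20. The same range was 9 to 13 against M-MI, 11 to 14 against S-MI, 0 to 0 for M-MI and S-MI against sham and for M-MI against S-MI, 0 to 3 in PBMCs (3 without L-MI replicate 2, 0 without sham replicates 1 or 5 or L-MI replicates 3, 4 or 5) and 8 to 12 for the tissue difference. Against S-MI, 9 were called without the 4 sham and S-MI arrays apart on the first component, and 7 without L-MI replicate 4 as well. Those 5 left out, 9 were called against sham, without Hcn4, Scn1a, Kcnj3 and Cacng6 and with Kcnk3. In PBMCs the analysis of variance called 0, array weights 2, the unadjusted p alone 5 and the adjusted p with the fold 0. Samples were taken to share only a replicate number, since in no 2 groups did every same-numbered pair correlate above 0.1 (from -0.263 to 0.261). Between sham LV and sham PBMCs all 6 pairs were above 0 (0.00308 to 0.139). A further refit took the replicate number within a tissue as a block. It never joined an LV array to a PBMC array, so a shared rat was not modelled. With this block 10 genes were called in L-MI against sham, 10 against M-MI, 12 against S-MI and 3 in PBMCs. For the tissue difference 3 were called (Cacna1g, Kcnk2 and Kcnt2). There Scn4b (adjusted p = 0.0507), Hcn4 (0.062), Scn3b (0.0692), Cacna2d2 (0.0798), Cacng6 (0.144) and Kcnj11 (0.234) no longer passed. The cause of these changes was not tested. No named call changed direction. Signals near the background of the array understate differences, and 72 of the 121 genes were below the median LV signal and 92 below the median PBMC signal.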
